A study of Mus musculus with 12 samples.

Results

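The genes described here encode subunits of the NMDA receptor and of the delta glutamate receptor: Grin1, Grin2a, Grin2b, Grin2c, Grin2d, Grin3a and Grid1. They were taken by name, and all 7 were found among the 15191 genes listed in the authors' deposited table of gene levels. Their exon bins, the stretches into which an annotation cuts a gene's exons, numbered 113 of the 156805 listed in the authors' deposited table of exon usage. The tissue was frontal cortex, taken from male mice of strain C57BL/6. The knockout group was Adar2-/-/Gria2R/R with 6 libraries, and the control group of litter mates was Adar2+/+ Gria2R/R with 6 libraries. Both groups were thus Gria2R/R: the genomic codon of this AMPA receptor subunit is already the arginine that ADAR2 otherwise writes into its RNA. No age, litter or batch was given in the labels, nor whether each library came from a mouse of its own. All values are the authors' means, log2 ratios and p-values per gene or bin, with no value per library, so no SD or range over mice can be shown.

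NMDA receptors are cation channels of excitatory synapses that open when glutamate and a co-agonist, glycine or D-serine, are bound and the membrane is depolarised. Each receptor is built from obligatory GluN1 subunits, encoded by Grin1, with GluN2 or GluN3 subunits that set its kinetics, its magnesium block and its partners. Delta receptors resemble ionotropic receptors in sequence and act in synapse organisation by binding cerebellins that are held by presynaptic neurexins. In the AMPA receptor subunit GluA2 and some kainate receptor subunits, ADAR2 recodes a glutamine codon in the pore loop to arginine, which lowers calcium entry. In NMDA receptors the corresponding place of GluN1 and GluN2 is held by an asparagine.

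The pore codon is shown because it sets most of these genes apart from the edited AMPA and kainate subunits. Each sequence below is the coding strand of the GENCODE M21 transcript (GRCm38), 5′ to 3′. The codon aligned with the glutamine-to-arginine site of Gria2 is in capitals, with 12 bases on each side. The reference Gria2 sequence has the glutamine codon, not the Gria2R allele that these mice carried.
Grin1: ggcgtcctgctcAACtctggcattggg
Grin2a: ggcctggtcttcAACaattctgtgccc
Grin2c: gcactggtcttcAACaactctgttccc
Grin2d: gccctggtgttcAACaactccgtgcca
Grin3a: cttctgtttggcAGAacagcagccatc
Grid1: ggagcctttgtcCAGcaaggtggtgag
Gria2: ggtgcctttatgCAGcaaggatgcgat
Grik2: ggagctctcatgCAGcaaggttctgag

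Among the sequences shown, the asparagine codon AAC stood at this place in Grin1, Grin2a, Grin2c and Grin2d. In Grin3a the alignment set the arginine codon AGA here, with 26.1% of aligned residues identical to Gria2. In Grin2a, Grin2c and Grin2d a phenylalanine codon directly precedes AAC. In Grin3a a phenylalanine codon is followed by the glycine codon ggc and only then by AGA. The capitals in Grin3a may therefore lie just past the place that holds asparagine in those genes. Grid1 had CAG, the glutamine codon that Gria2 and Grik2 also have there. Among the 9 AMPA and kainate subunit genes, 8 had CAG and Gria4 had CAA, which also encodes glutamine. The stretches lie at chr2:25297374-25297400 for Grin1, chr16:9653549-9653575 for Grin2a and chr11:115253851-115253877 for Grin2c. Those of Grin2d and Grin3a lie at chr7:45854381-45854407 and chr4:49770569-49770595, and that of Gria2 at chr3:80706899-80706925. All 6 Grin genes and Gria2 run on the minus strand. The Grid1 stretch crosses an intron on the plus strand, between positions 35450378 and 35452268 of chromosome 14. All are coding exon sequence on GRCm38.

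None of the 7 genes had a site among the 143 edited sites in the authors' deposited table of RNA editing. The AMPA and kainate subunit genes held 6 of those sites, in 4 genes, and each of the 6 fell in the knockout per the authors' deposited table. At the Grik2 pore codon, the Q/R site (chromosome 10, position 48964136 on mm9), the authors' deposited table gave 88.4% edited reads in the control and 35.0% in the knockout (adjusted p = 4.84e-31). The authors' deposited table lists chosen sites only and gives no coverage, so the editing level at the CAG codon of Grid1 was not analysed here.

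The first comparison was of mRNA levels between the genotypes. The 2 conditions are headed A and B in the authors' deposited table, without a genotype. Gene differences below are condition A relative to condition B, and neither is assigned to a genotype. Adarb1, the gene of ADAR2, had a mean normalized read count of 1488 in condition A and 6875 in condition B per the authors' deposited table (adjusted p = 3.06e-126). Of the 7 receptor genes, 0 passed an adjusted p of 0.05 per the authors' deposited table, where 3 of all listed genes (0.0197%) did. An unadjusted p under 0.05 was found for 0 of the 7 and for 283 (1.86%) of all genes per the authors' deposited table. The adjusted p of each receptor gene was listed as 1, and their unadjusted p ranged from 0.232 for Grin3a to 0.995 for Grin2a per the authors' deposited table.

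**Figure D1:**
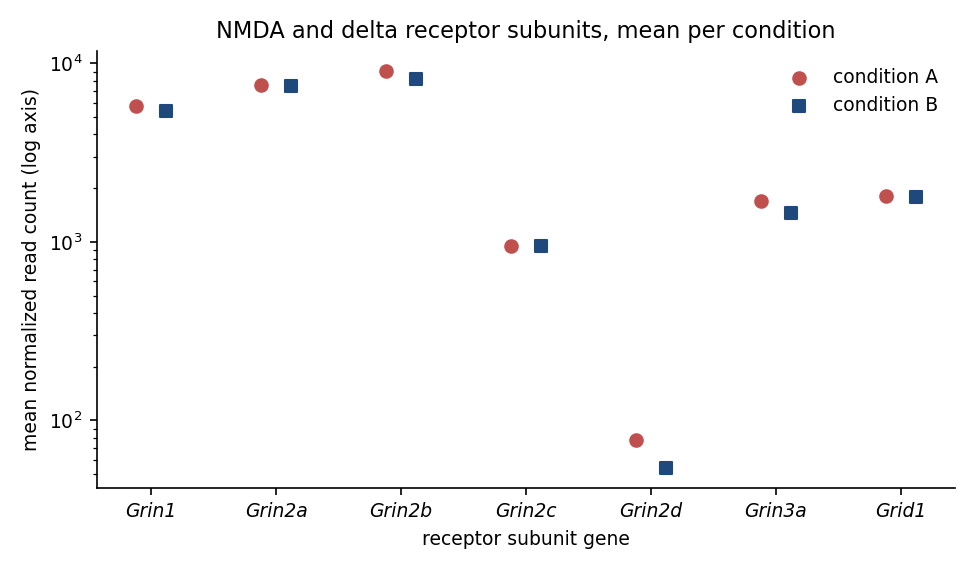
Mean normalized read count of each NMDA and delta receptor subunit gene (log axis) in condition A (circles) and condition B (squares) of the authors' deposited table, with no error bars because no values per library were used. The pair of points is farthest apart for Grin2d, which at 77.3 and 54.1 also sits far below the other genes.

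The obligatory subunit was Grin1 (chr2:25291181-25319187 on GRCm38, minus strand). Its mean normalized count in the authors' deposited table was 5756 in condition A and 5410 in condition B, a log2 difference of 0.09 (p = 0.456). The condition A mean was thus 6.40% above that of condition B.

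The GluN2 genes of the adult forebrain are Grin2a, which gives receptors faster kinetics, and Grin2b, which gives slower ones and is prominent early in development. Grin2a was at 7541 in condition A and 7484 in condition B per the authors' deposited table, a log2 difference of 0.01 (p = 0.995). Grin2b was at 9109 and 8190 per the authors' deposited table, a log2 difference of 0.15 (p = 0.374). The Grin2b mean was 11.2% higher in A, a difference the authors' test did not separate from the spread between libraries.

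Grin2c, best known from the cerebellum and also found in astrocytes, had nearly equal means of 953 and 954 in A and B per the authors' deposited table (log2 difference -0.00098, p = 0.706). Of 5 cerebellar markers, the defining genes Gabra6 and Pcp2 were not among the listed genes, and Cbln3 had a mean of 16.1 per the authors' deposited table. The other 2, Calb2 and Zic1, which are not restricted to the cerebellum, had means of 795 and 708 per the authors' deposited table.

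Grin2d, a GluN2 gene of interneurons and of the young brain, had the lowest level and the largest log2 difference of the 7 genes. Its means were 77.3 in condition A and 54.1 in condition B per the authors' deposited table, a log2 difference of 0.51 (p = 0.278). Its count lay at the 15.0th percentile of all listed genes, so few reads stand behind this ratio. All 6 inhibitory neuron markers (Gad1, Gad2, Slc32a1, Pvalb, Sst and Vip) were also higher in condition A per the authors' deposited table. Their summed means were 18447 in A and 16286 in B, and 0 of them passed per the authors' deposited table. The median of their log2 differences was 0.14, and their unadjusted p ran from 0.148 for Vip to 0.665 for Gad1. Higher in A were also 4 of the 6 excitatory neuron markers, with a median of 0.11, and 52.9% of all listed genes. The part of these cells in the Grin2d value was not tested, and in a tissue extract fewer cells of a type and less RNA per cell cannot be told apart.

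Grin3a, whose GluN3 subunit lowers the calcium permeability of NMDA receptors, was at 1686 in condition A and 1446 in condition B per the authors' deposited table. Its log2 difference was 0.22, with the lowest p of all the members, 0.232, per the authors' deposited table. Its sister gene Grin3b was not analysed here.

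Grid1, which encodes the delta receptor GluD1, was at 1808 in condition A and 1789 in condition B per the authors' deposited table, a log2 difference of 0.02 (p = 0.843).

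**Figure D2:**
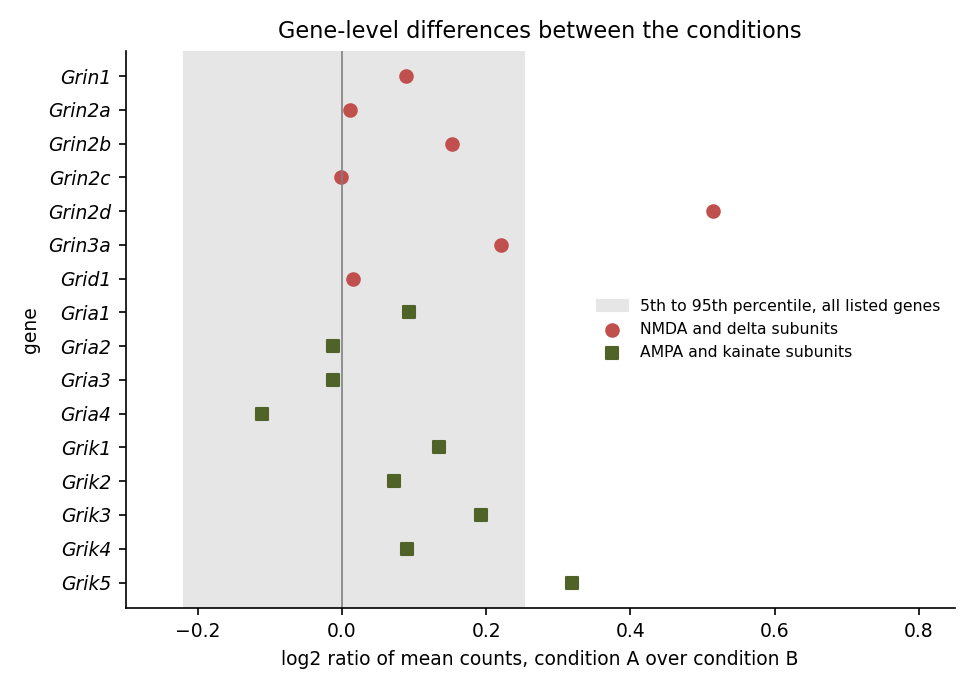
Log2 ratio of condition A over condition B for the 7 NMDA and delta receptor genes (circles) and the 9 AMPA and kainate receptor genes (squares) in the authors' deposited table, with the 5th to 95th percentile of all listed genes as a grey band. Grin2d at 0.51 and Grik5 at 0.32 lie to the right of the band, which runs from -0.22 to 0.25, and no point carries an adjusted p under 0.05.

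As a group, 6 of the 7 genes were higher in condition A, with a median log2 difference of 0.09 per the authors' deposited table, where the median of all listed genes was 0.0063 and 52.9% were higher in A. The members' median was 0.05 without Grin2d, the 1 gene with a mean count under 100, and their mean was 0.14 with it. The difference was under 0.1 in size for 4 of the 7 and for 68.3% of all genes per the authors' deposited table. The AMPA and kainate genes had a median of 0.09 as well, with 6 of 9 higher in A, and 0 of 9 passed per the authors' deposited table. Their extremes were Gria4 at -0.11 (p = 0.151) and Grik5, a kainate subunit that needs a partner subunit to form channels, at 0.32 (p = 0.0903) per the authors' deposited table. Gria2, the main target of ADAR2 in this family, was at -0.01, and Gria1, Gria3, Grik1, Grik2, Grik3 and Grik4 were at 0.09, -0.01, 0.13, 0.07, 0.19 and 0.09 per the authors' deposited table.

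Levels were compared between genes only per kilobase of annotated exon (GENCODE M21), from the mean normalized count over both conditions per the authors' deposited table. Grin1 was highest at 576 per kilobase, followed by Grin2a at 419, Grin2b at 348 and Grid1 at 302. Grin2c at 189, Grin3a at 128 and Grin2d at 9.86 per kilobase came last. With the length of the principal transcript instead, an alternative chosen after the values were seen, Grin2a led at 1709 and Grin1 followed at 1317, and the other 5 kept their places. That transcript covers 4.4 of 17.9 annotated kilobases in Grin2a but 24.1 of 24.8 in Grin2b. The counts were not limited to it, so these values depend strongly on which transcript is taken as principal. The AMPA genes stood higher, from 993 per kilobase of annotated exon for Gria4 to 2672 for Gria2, and the kainate genes lay between 47.1 for Grik1 and 292 for Grik5. Per kilobase of the principal transcript the order between families changed: Gria4, at 1170, lay below Grin1 and Grin2a, and Grik2, at 787, and Grik5, at 401, lay above Grin2b, at 359. Without values per library, it cannot be said which neighbours in this order differ beyond their spread. The counts were also made on build mm9, while the lengths are those of M21 on GRCm38. The listed bin numbers ran to 18 for Grin2a and 20 for Grin2b, where cutting M21 gave 25 and 24 bins. The lengths may thus differ from those behind the counts, and unevenly between genes.

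The second comparison was of exon usage, the share of a gene's reads that falls in each of its bins. The authors' deposited table heads its ratio as control over ADAR. It is given here as knockout over control, with the sign turned. Of the 113 bins, 0 had an adjusted p under 0.05 per the authors' deposited table, where 11 of 149137 bins with a p (0.00738%) did. The adjusted p was listed as 1 for all 113 bins. An unadjusted p under 0.05 was found for 3 of the 113 (2.65%), beside 1.67% of all bins, per the authors' deposited table. When the bins of a gene were combined by the Simes method and adjusted over 12669 genes, 0 of the 6 genes with bins passed, where 3 genes (0.0237%) did. Grin2d had no bin in the authors' deposited table, in which no bin has a mean count under 20.

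Across the 113 bins the median size of the log2 change was 0.07, and 55 bins were higher and 58 lower in the knockout per the authors' deposited table. The change was under 0.2 in size for 106 bins (93.8%) and for 89.2% of all bins per the authors' deposited table. It was under 0.1 for 61.1% of the 113 and for 65.9% of all bins, whose median size was 0.067. Among bins averaging 100 reads or more, the median size was 0.060 in these genes and 0.046 over all genes. Of those bins 69.1% and 82.8% were under 0.1, so these genes' bins varied somewhat more, a difference that was not tested. The 182 bins of the AMPA and kainate genes had a median size of 0.05, and 4 of them (2.20%) had an unadjusted p under 0.05 per the authors' deposited table. Bins with few reads spread more widely. Of the 113 bins, the 81 averaging 100 reads or more all lay between -0.17 and 0.20, and the 32 bins under 100 ran from -0.48 to 0.43 per the authors' deposited table.

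**Figure D3:**
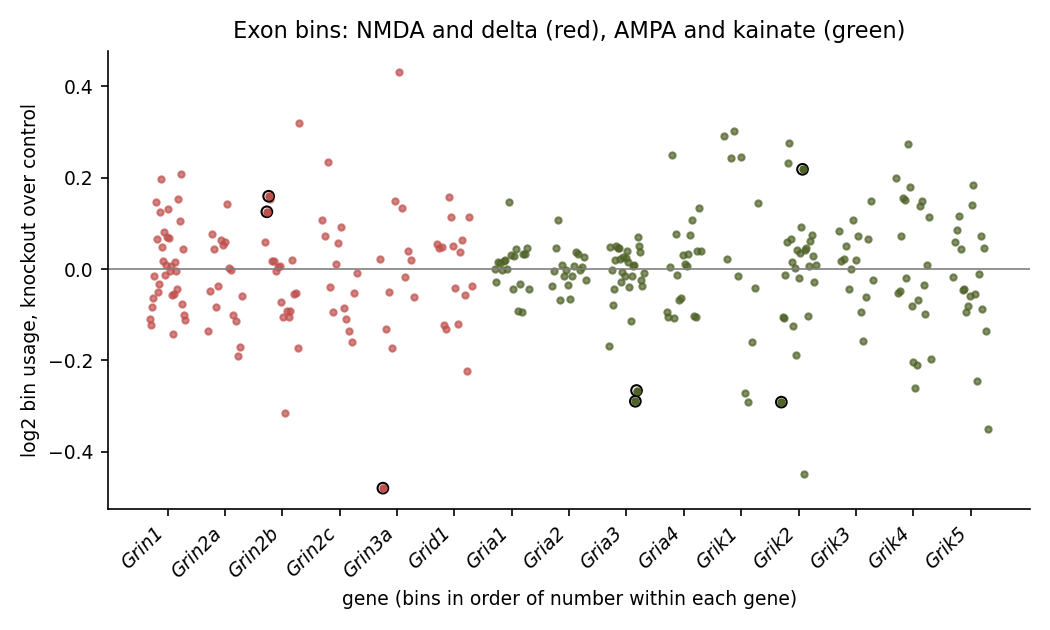
Log2 change in usage, knockout over control, of each exon bin per the authors' deposited table, by gene, with NMDA and delta receptor genes in red and AMPA and kainate receptor genes in green. Bins with an unadjusted p under 0.05 are ringed, 3 in the first set and 4 in the second, and the widest red points are the low-count bins E003 and E008 of Grin3a at -0.48 and 0.43.

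Grin1 is the member whose splicing is best known. Its transcripts include or skip an exon near the 5′ end, the N1 cassette of the amino-terminal domain, and 2 near the 3′ end, the C1 and C2 cassettes of the cytoplasmic tail. In GENCODE M21 each of the 3 coding stretches was present in 4 and skipped in 4 of 8 complete coding transcripts. They are shown because they are the places where Grin1 mRNA can change without a change in its level, and all are on the minus strand of GRCm38, in lower case throughout.
N1 cassette, 63 bases, chr2:25311343-25311405: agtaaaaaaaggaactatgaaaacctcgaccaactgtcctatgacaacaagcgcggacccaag
C1 cassette, 111 bases, chr2:25294438-25294548: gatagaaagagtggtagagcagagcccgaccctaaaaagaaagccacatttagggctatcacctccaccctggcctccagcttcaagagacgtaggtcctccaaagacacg
C2 cassette, coding part, 114 bases, chr2:25292371-25292484: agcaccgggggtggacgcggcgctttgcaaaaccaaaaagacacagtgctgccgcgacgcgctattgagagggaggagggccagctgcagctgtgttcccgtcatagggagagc

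The N1 and C1 lengths are multiples of 3, so including or skipping either keeps the reading frame. The C2 stretch is the coding part of the last exon, up to the stop codon, and transcripts without it end in another tail. The authors' deposited table numbers bins without coordinates, and its numbers for Grin1 ran to 38, where cutting the M21 annotation the same way gave 42 bins. Which bin holds which cassette was therefore not assigned, and every listed Grin1 bin is given by number.

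Of the 38 Grin1 bin numbers, 34 were listed, and E020, E021, E024 and E028 were not analysed here. No listed bin had an unadjusted p under 0.05 per the authors' deposited table, and the smallest was 0.111, for E026. Of the 34 bins, 17 were higher in the knockout per the authors' deposited table. The change was under 0.1 in size for 22 bins and under 0.2 for 33 per the authors' deposited table.

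Bins E001 to E005 were lower in the knockout, at -0.11, -0.12, -0.08, -0.06 and -0.02 per the authors' deposited table. E006 and E007 were at 0.15 and 0.07, E008 and E009 at -0.05 and -0.03, and E010 to E014 at 0.12, 0.20, 0.05, 0.02 and 0.08 per the authors' deposited table. Thus short runs of either sign followed each other, none over 5 bins long. E015 to E019 were at -0.01, 0.0089, 0.07, 0.13 and 0.07, and E022 and E023 at -0.0042 and 0.0057 per the authors' deposited table. E025 to E027 were at -0.06, -0.14 and -0.06, and E029 to E031 at 0.02, -0.0037 and -0.04 per the authors' deposited table. E032, E033 and E034 were at 0.15, 0.10 and 0.21, and E035 to E038 at -0.08, 0.04, -0.10 and -0.11 per the authors' deposited table. The largest change, that of E034, had a mean count of 96.9 and p = 0.308 per the authors' deposited table.

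**Figure D4:**
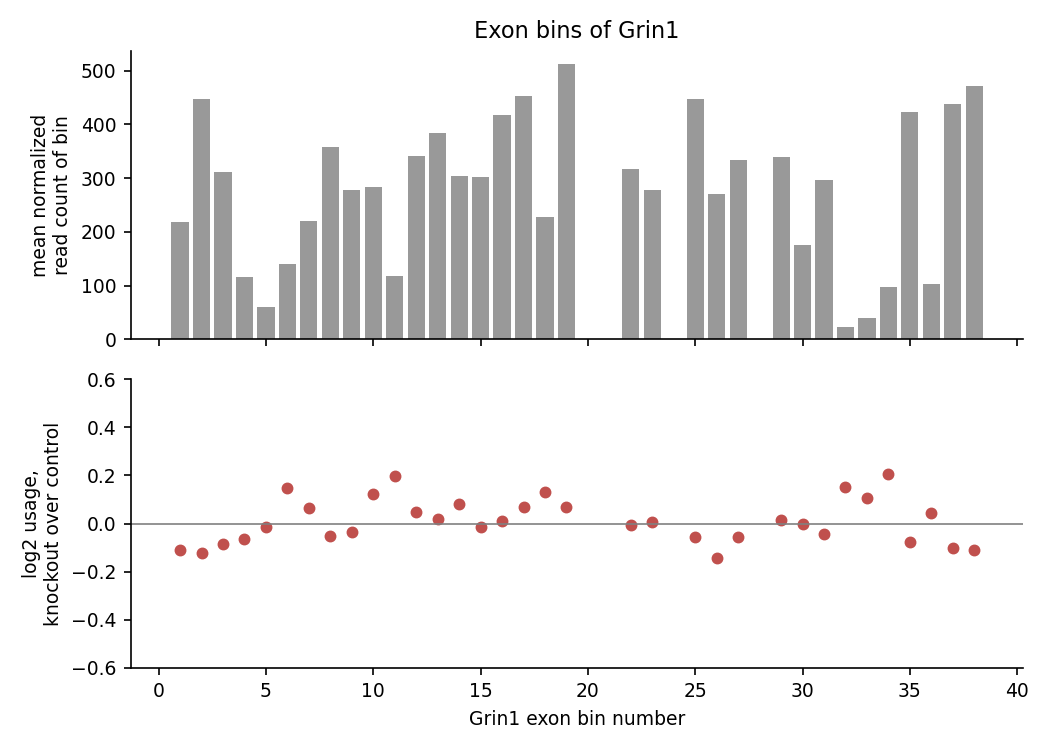
Mean normalized read count (upper panel, bars) and log2 change in usage, knockout over control (lower panel, points), of the 34 listed Grin1 exon bins by bin number per the authors' deposited table. The points lie between -0.14 and 0.21 along the whole gene, and the bins with the lowest counts are E032 at 22.5 and E033 at 40.5.

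Depth differed along Grin1. The 25 bins averaging 200 reads or more lay between -0.14 and 0.13, and the 9 with fewer between -0.06 and 0.21, a range of similar width, per the authors' deposited table. The dispersion, which in a count model is the squared coefficient of variation between libraries beyond counting noise, ranged from 0.00636 for E019 to 0.0674 for E033 per the authors' deposited table. It was also high in some bins with many reads, such as E029 with 0.0407 at a mean count of 339 per the authors' deposited table. E032, with the lowest mean count of 22.5, had a log2 change of 0.15 and p = 0.569 per the authors' deposited table.

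In Grin2b, all 20 bins up to E020 were listed, and 2 of them had an unadjusted p under 0.05 per the authors' deposited table. These neighbours were E002 at 0.13 (p = 0.0448) and E003 at 0.16 (p = 0.0480), both higher in the knockout, with an adjusted p of 1 per the authors' deposited table. E002 held the most reads, a mean count of 2386 or 22.7% of the sum over the gene's bins per the authors' deposited table. Grin2b had a run of 6 bins of each sign: E001 to E006 were all higher in the knockout, from 0.02 to 0.16, and E010 to E015 all lower, from -0.31 to -0.07, per the authors' deposited table. Runs of 6 listed bins, all lower, were also found at the high bin numbers of Grin2a and Grin2c. Summed over the listed bins, mean counts were 1.22 times the gene mean in Grin2b and 1.71 times in Grin1. Some reads may thus count in more than 1 bin, so the bins of a run need not be independent. The Grin2b bin with the largest change was E020, at 0.32 with a mean count of 21.9 (p = 0.183) per the authors' deposited table.

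In Grin2a, 17 bins were listed and 0 had an unadjusted p under 0.05 per the authors' deposited table. The 2 smallest were those of E010, at 0.14 (p = 0.0523), and E014, at -0.11 (p = 0.0935), per the authors' deposited table. The largest change was that of E015, at -0.19 with a mean count of 82.6 (p = 0.211) per the authors' deposited table. E002 held 28.8% of the summed bin counts, with a mean of 2664, and stood at -0.05 per the authors' deposited table.

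In Grin2c, 14 bins were listed, and the smallest p was 0.260 per the authors' deposited table. It was that of E003, which also had the largest change, 0.23 with a mean count of 80.9, and E012 followed at -0.16 (p = 0.311) per the authors' deposited table. E001 to E003 were higher and E009 to E012, E015 and E016 lower in the knockout, the latter between -0.16 and -0.0090, per the authors' deposited table.

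Grin3a had the smallest p of all 113 bins, 0.0189 per the authors' deposited table. It was that of E003, which stood at -0.48, a usage 28.3% lower in the knockout, with a mean count of 34.6 and a dispersion of 0.0288 per the authors' deposited table. E008 lay on the other side at 0.43, with a mean count of 25.7 (p = 0.0817) per the authors' deposited table. By contrast, the 3 bins of Grin3a with the most reads, E001, E011 and E012, were at 0.02, -0.02 and 0.04 per the authors' deposited table. The Simes p of the gene was 0.227, with an adjusted p of 1.

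In Grid1, all 16 bins up to E016 were listed, and 0 had an unadjusted p under 0.05 per the authors' deposited table. E014 had the smallest p and the largest change, at -0.22 with a mean count of 95.8 (p = 0.0763), and E006 followed at 0.16 (p = 0.141) per the authors' deposited table. The M21 principal transcript of Grid1 also has 16 exons, but the bins were not matched to them. The bin with the most reads was the last, E016, at -0.04 per the authors' deposited table. In 4 of the 5 members on the minus strand that had bins, it was the first or second.

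Other genes that work with these receptors were described by lists, each by its counts beside the 0.0197% of all genes that passed. Of 21 scaffold and postsynaptic density genes, 14 were higher and 7 lower in condition A, with a median of 0.0088 per the authors' deposited table, and 0 passed. Homer2 (-0.30, p = 0.00481) and Homer1 (-0.19, p = 0.0472), whose proteins link Shank scaffolds to metabotropic glutamate receptors, had an unadjusted p under 0.05 and an adjusted p of 1 per the authors' deposited table. Homer1 also has a short form that neuronal activity induces, and the gene level sums over forms. Dlg4, which encodes the main NMDA receptor scaffold PSD-95, was at 0.19 (p = 0.186) per the authors' deposited table. Shank1 had the largest difference of the list, 0.82, with means of 2941 in A and 1671 in B but a p of 0.142 per the authors' deposited table.

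The co-agonist list holds enzymes and transporters that make or clear glycine and D-serine. Of its 14 genes 12 were listed, and all 12 were higher in condition A, with a median of 0.05 and a range from 0.03 for Gldc to 0.19 for Shmt1, and 0 passed per the authors' deposited table. Srr, the serine racemase that makes D-serine, was at 0.13 (p = 0.230) and the phosphatase Psph, which completes serine synthesis, at 0.06 (p = 0.365) per the authors' deposited table. The glycine transporter gene Slc6a9 was at 0.05 (p = 0.852) per the authors' deposited table.

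Of 23 kinase, phosphatase and other signalling genes, 13 were higher and 10 lower in condition A, with a median of 0.02, and 0 passed per the authors' deposited table. Nos1, the neuronal nitric oxide synthase that is tethered to NMDA receptors through PSD-95, was at 0.60 (p = 0.0870) per the authors' deposited table. Camk2a, the main kinase of the postsynaptic density, was at 0.13 (p = 0.373) per the authors' deposited table.

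Of 20 trafficking and auxiliary genes, 14 were higher in condition A, with a median of 0.03, and 0 passed per the authors' deposited table. Sorcs2, a sorting receptor, had an unadjusted p under 0.05, at 0.28 (p = 0.0384), and Gipc1, an adaptor that binds GluN2B, was at -0.10 (p = 0.347) per the authors' deposited table.

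Of 16 listed ligands and partners of delta receptors, 12 were higher in condition A, with a median of 0.04, and 0 passed per the authors' deposited table. The cerebellin Cbln2, a GluD1 ligand of the forebrain, was at -0.12 (p = 0.286) and Cbln4 at -0.11 (p = 0.494) per the authors' deposited table. The neurexin genes Nrxn2 and Nrxn3 were at 0.10 and 0.05 per the authors' deposited table. Shank2, a scaffold gene, was at 0.24 (p = 0.2003) per the authors' deposited table.

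Of 20 listed splicing regulators, among them several with a known part in Grin1 exon choice, 10 were higher and 10 lower in condition A, with a median of -0.00057, and 0 passed per the authors' deposited table. Nova2, a neuronal splicing factor, was at 0.67 (p = 0.186) and Hnrnph1 at -0.10 (p = 0.207), while Nova1 was at 0.0080 (p = 0.827) per the authors' deposited table. Celf2 was at 0.26 (p = 0.355) per the authors' deposited table.

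The tissue label was checked against markers of cell types and neighbouring regions. All 6 markers of excitatory cortical neurons were listed, with mean counts from 798 to 34566 per the authors' deposited table. Of 5 striatal markers 4 were listed, 3 of them higher in condition A, and Ppp1r1b had an unadjusted p under 0.05 at 0.30 (p = 0.00242) per the authors' deposited table. The 3 olfactory bulb markers were all higher in A, with summed means of 507 and 395 per the authors' deposited table. The smallest of their unadjusted p was 0.872, so the authors' test did not separate these differences from the spread between libraries. Among markers of excitatory and inhibitory neurons, astrocytes, oligodendrocytes and their precursors, 0 had an unadjusted p under 0.05 per the authors' deposited table. The same held for the listed markers of microglia, endothelium, choroid plexus, cerebellum and olfactory bulb. Excitatory neuron markers summed to 59740 in A and 55795 in B, most of it from Camk2a (36090 and 33042), and astrocyte markers to 34739 and 34239, per the authors' deposited table. Of the 6 excitatory markers 2 were lower in A, among them Neurod6, a transcription factor gene, at -0.22 (p = 0.0661) per the authors' deposited table. The part of cell makeup in the receptor values was not tested.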

How the data were processed

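Frontal cortex RNA of 12 libraries, 6 per genotype, was extracted with Trizol and made into stranded libraries after ribosomal RNA removal, per the labels. The build mm9 and the tools SAMtools 01.19.0, DESeq, HTSeq, Bowtie2 2.02.0 and TopHat2 2.0.6 come from the submitters' processing notes, which give no roles here. The deposited gene table holds mean normalized counts, a signal, with a ratio, its log2 value and p-values by the authors, per the file headers. The deposited exon table holds mean normalized counts per bin, log2 ratios, p-values and a dispersion, a score of spread. The deposited editing table holds the percent of edited reads, a p-value and another kind of value, the site's position. Depth per library is unknown.

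No count model could be fitted, so the authors' p-values were used with a threshold of 0.05. Simes p-values per gene and Benjamini-Hochberg adjustment were computed with numpy 2.4.6 and pandas 2.3.3 and tested on simulated data. Members, lists and tests were chosen with earlier results of these data known. Named were all members, Grin3b, Adarb1, the AMPA and kainate genes, every Grin1 bin, and of each other member the 2 bins with the smallest p, the largest change and any p under 0.05. Of each list the 2 genes with the smallest p and any under 0.05 were named, and others (Dlg4, Shank1, Slc6a9, Camk2a, Gldc, Shmt1, Cbln2, Cbln4, Nova1, Celf2, Zic1 and the neurexins) were chosen after their values were seen. Pore codons were found by aligning translated coding sequences with Gria2 (Biopython 1.88, BLOSUM62, gap costs of 11 and 1). A few items that these rules would name are not reported here. The alternatives tried are given in the closing section.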

Additional observations from a re-analysis of the deposited data

How the results depend on the processing

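The counts of 0 changed genes and 0 changed bins stayed at 0 when p-values were adjusted over the listed genes or bins alone, by Bonferroni, at an adjusted p under 0.1 and with a minimum mean count of 100 per gene or 50 per bin. For bins this also held with Adarb1 left out. The count of 0 genes with a changed bin stayed at 0 with the smallest p times the number of bins and with bins of a mean count of at least 50. All of these settings reused the authors' p-values, of which the smallest were 0.232 for a member gene and 0.0189 for a member bin. Adjusted over all genes or bins, such p-values could not have passed, so these counts say little about the processing. With an unadjusted p under 0.05 the count of bins was 3 in place of 0. The median gene log2 difference of 0.09 was 0.05 without Grin2d, 0.14 as a mean and 0.08 with the median of all genes subtracted. Per kilobase of the principal transcript, the levels of Grin1, Grin2a and Grin3a moved by over 1.5 times, to 1317, 1709 and 211. Leaving out libraries, other count models and other normalizations were not run, since the tables hold no values per library. No paired analysis was possible because of this. Grin2d, with a mean count of 65.7 and no listed bin, and the bins of Grin3a limit what could be detected.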
